A study of Mus musculus with 27 samples.

Results

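Oxidative phosphorylation couples the oxidation of nutrients to the making of ATP in the inner mitochondrial membrane. Complexes I to IV pass electrons from NADH and succinate to oxygen and complexes I, III and IV pump protons, and the ATP synthase, complex V, uses the proton gradient. Most subunits are encoded in the nucleus, transcribed by RNA polymerase II (Pol II) and imported, while a small number come from the mitochondrial genome and are not treated here. Nuclear respiratory factor 1 (NRF1) and the ETS factor GABPA are textbook activators of these genes, and embryonic stem cells, which also rely on glycolysis, transcribe them at high levels.

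The genes described here were the protein-coding rows of the RNA table whose symbols begin with Nduf, Uqcr, Cox4 to Cox8 or Atp5, or are Sdha, Sdhb, Sdhc or Sdhd. There were 92 of them among 20192 coding rows and 38582 rows in all. By role they comprised 7 core and 29 accessory subunits and 7 assembly factors of complex I (NADH dehydrogenase), 4 subunits of complex II (succinate dehydrogenase), 8 of complex III (cytochrome bc1) and 12 of complex IV (cytochrome c oxidase). A further 7 were tissue isoforms of complex IV, known from muscle, heart, lung or testis, and 15 were subunits of complex V, 5 in its catalytic F1 head and 10 in its stalks and membrane part. The 3 other matches were Cox7a2l, a supercomplex assembly factor, and Atp5s and Atp5sl. The rule used symbols and no measured value, but the members were chosen with earlier results of these data known.

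All samples were mouse embryonic stem cells grown in serum with leukemia inhibitory factor. RNA was measured with spike-in RNA in 2 libraries of wildtype cells with a control short hairpin RNA (shCtl) and 2 of wildtype cells with a hairpin against WDR43 (shWDR43), a WD-repeat protein of ribosomal RNA processing that also binds chromatin. Chromatin immunoprecipitation mapped Pol II in its hypophosphorylated form (hypoP, antibody 8WG16), phosphorylated on serine 5 (Ser5P, a mark of initiation) and on serine 2 (Ser2P, a mark of elongation), with 2 shCtl and 2 shWDR43 lists for each form. FLAG-tagged WDR43 was mapped in 1 list each of cells carrying Fbio-tagged WDR43 given DMSO as solvent, DRB, which inhibits kinases of transcription elongation, or ActD (actinomycin D), which blocks transcription. It was also mapped in 1 list each of cells labelled FB-WDR43 and cFB-KI-WDR43. The sources used here do not say whether ChIP numbers 1 and 2 mark replicates or hairpins, nor how many hairpins the RNA samples represent.

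The promoters shown here put the measured loci beside the motifs of the pathway's known activators. They are the 250 bases before the annotated start of 4 genes, 5′ to 3′ on the gene's strand, from RefSeq on GRCm38.p6, chosen after the values were seen. Cox7c is the most abundant of the 92 RNAs, Atp5g2 and Cox6a1 hold the palindromic NRF1 core, and the RNA of Ndufb6 did not pass the test. All 4 genes lie on the minus strand, at chr13:86046796-86047045 for Cox7c, chr15:102671048-102671297 for Atp5g2, chr5:115348959-115349208 for Cox6a1 and chr4:40279422-40279671 for Ndufb6. Capitals mark the motif matches.
Cox7c: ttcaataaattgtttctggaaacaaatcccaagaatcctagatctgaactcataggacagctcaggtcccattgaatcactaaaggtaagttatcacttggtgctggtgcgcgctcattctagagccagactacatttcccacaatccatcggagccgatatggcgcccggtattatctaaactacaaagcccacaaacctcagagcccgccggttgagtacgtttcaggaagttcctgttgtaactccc
Atp5g2: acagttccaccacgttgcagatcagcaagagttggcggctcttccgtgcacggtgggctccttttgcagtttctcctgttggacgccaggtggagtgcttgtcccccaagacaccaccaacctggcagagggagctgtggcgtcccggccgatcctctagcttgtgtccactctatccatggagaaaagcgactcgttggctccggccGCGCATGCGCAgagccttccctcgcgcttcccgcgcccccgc
Cox6a1: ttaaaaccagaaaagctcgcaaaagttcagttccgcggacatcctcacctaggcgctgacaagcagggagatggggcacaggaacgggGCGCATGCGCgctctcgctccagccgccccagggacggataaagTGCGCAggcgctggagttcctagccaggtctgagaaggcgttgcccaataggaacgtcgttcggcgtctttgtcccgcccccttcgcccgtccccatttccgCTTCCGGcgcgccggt
Ndufb6: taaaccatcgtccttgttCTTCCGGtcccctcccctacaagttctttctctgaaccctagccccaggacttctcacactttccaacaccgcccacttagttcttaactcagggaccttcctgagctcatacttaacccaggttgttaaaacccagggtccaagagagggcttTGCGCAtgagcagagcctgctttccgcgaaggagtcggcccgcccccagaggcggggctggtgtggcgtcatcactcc

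RefSeq promoter entries matched 76 of the 92 genes by symbol or accession, with 82 entries. The NRF1 core stood in 5 entries (6.10%), those of Atp5g2, Atp5k, Cox6a1, Ndufa11 and Ndufaf4, against 0.782% of all 32851 entries and 1.14% of those of coding rows. The NRF1 half-site TGCGCA, which can overlap the core, stood in 16 entries (19.5%, against 6.43% of all and 8.40% of coding rows). The ETS motif CCGGAAG stood in 13 (15.9%, against 6.91% and 9.35%), among them Cox6a1, Ndufb6, Ndufs3, Uqcrh and Atp5j. The E-box CACGTG stood in 9 (11.0%, against 6.02% and 6.97%), and the YY1 motif AAGATGGC and the ERRA motif TNAAGGTCA in 2 each (2.44%, against 1.56% and 1.14% of all and 1.53% and 0.907% of coding rows). Both strands were searched, and a match is a description of the letters only. In Atp5g2 the core began 42 bases before the start and its half-site 37. In Cox6a1 the core began 162, a half-site 118 and the ETS motif 16 bases before the start. In Ndufb6 the half-site began 78 and the ETS motif 232 bases before the start, and Cox7c held none of the 6 motifs. The entries of the group had a median of 15 CpG dinucleotides in the 250 bases, against 11 for coding rows and 6 for all entries.

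In the RNA, Wdr43 itself stood at 82.3 and 78.2 in shCtl against 21.2 and 20.7 in shWDR43, in FPKM (fragments per kilobase of transcript and library size, a level per length) on the deposited spike-in scale. The 12452 genes with a mean of at least 1 FPKM were tested with limma on log2(FPKM + 1), and a gene was called at a Benjamini-Hochberg adjusted p under 0.05. Of all genes tested, 5322 were lower and 760 higher in shWDR43, and 2606 and 1615 once each library was centred on its median. Centring raised the median change of all genes by 0.33, from -0.39 to -0.06. Of 9 stem cell markers 8 were lower and Nanog missed the threshold. Pou5f1 was among the lower ones, at 1038.4 and 1056.5 FPKM in shCtl against 554.0 and 459.1 in shWDR43. Of 8 fibroblast markers tested, 2 were higher (Tagln and Timp3) and 2 lower, with summed levels of 281.8 and 296.7 in shCtl against 258.0 and 333.9 in shWDR43 over all 10. Of those 10 Dcn was at 0 throughout. The 6 muscle and heart markers did not exceed 1.7 FPKM in any library. Of 3 primitive endoderm markers tested, Gata6 was higher, and the 4 markers summed to 3.0 and 2.7 against 5.5 and 5.4. The part of such cells in the results below was not tested.

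Of the 92 genes 89 passed the level filter, and 73 of these (82.0%) were lower in shWDR43, where 42.7% of all genes tested were lower. None was higher by limma at the adjusted threshold, where 6.1% of all genes tested were higher, and at an unadjusted p under 0.05 there were 77 lower and 1 higher, with 49.0% of all genes tested lower. The median log2 fold change of the group was -0.68, against -0.39 over all genes tested, and 87 of 89 values lay below 0. Both shWDR43 libraries lay below both shCtl libraries for 85 genes (95.5%), against 63.6% of all genes tested. The 3 genes under the filter were Cox4i2, Cox6a2 and Cox8b, all tissue isoforms. In these bulk samples fewer cells and less RNA per cell cannot be told apart. With libraries centred, 46 of the 89 were lower (20.9% of all genes), 1 was higher and the median was -0.35, and no gene with a called fall changed direction. Leaving out any 1 of the 4 libraries, which leaves a single library assumed to vary like the other group, ended every call among all 12452 genes, with medians of the group from -0.77 to -0.63 and 53 to 70 of its genes lower at an unadjusted p under 0.05 (31.5% to 39.4% of all genes).

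Across all genes tested the more abundant RNAs had the lower changes, with a Pearson r of -0.34 between log2 mean FPKM and log2 fold change across genes, and of -0.14 across the 89, where genes are not independent replicates. Of the 89 genes 74 had a mean of 27.2 FPKM or more, a level that 2493 tested genes reached, called abundant below. The 74 had a median log2 fold change of -0.69 with 89.2% lower, and all 2493 a median of -0.71 with 78.4% lower. The median of the 74 was therefore close to that of all abundant genes, which include them. Levels within this range were not matched. Below a mean of 2.525 FPKM the median of all genes was -0.15 with 13.7% lower. The group made up 3.17% and 3.33% of the summed FPKM of coding genes in shCtl and 3.13% and 3.15% in shWDR43, so its share of the coding total differed little between the libraries.

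**Figure D1:**
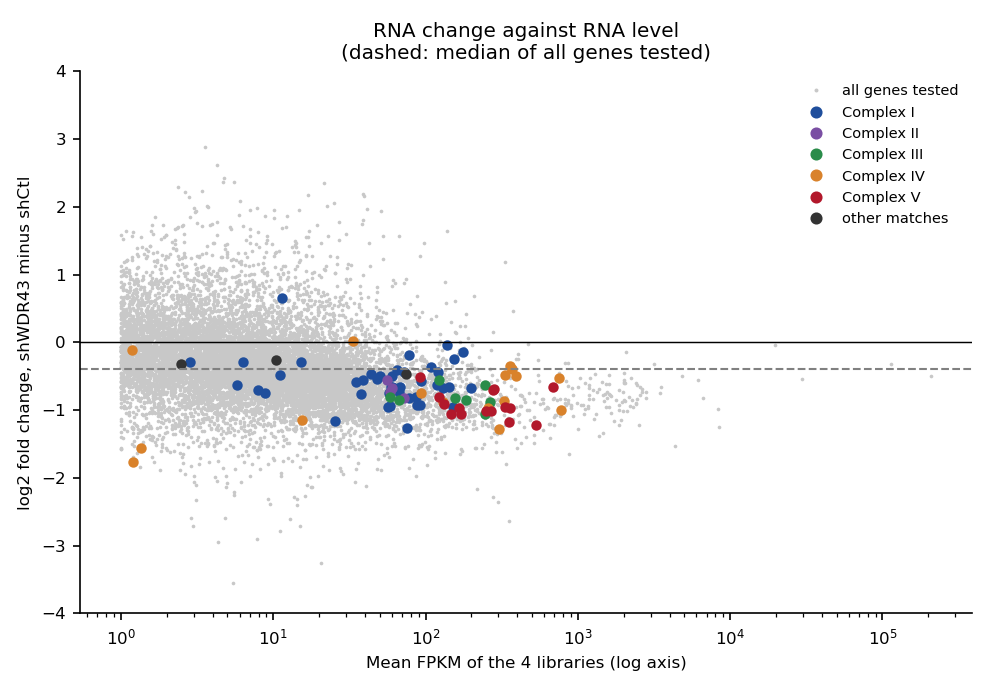
The log2 fold change (shWDR43 minus shCtl, y axis) is plotted against the mean FPKM of the 4 libraries (x axis, log scale) for all 12452 genes tested in grey and the 89 tested oxidative phosphorylation genes in colour by complex. Most coloured points lie at high levels and between -1.3 and -0.3, within the cloud of other abundant genes, and Ndufs5 lies above 0.

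All 7 core subunits of complex I were lower, with log2 fold changes from -0.95 to -0.54. Core subunits carry the flavin and iron-sulfur clusters that take electrons from NADH. Ndufs1 (chromosome 1, 63190166 to 63223396, mm9), which holds iron-sulfur clusters of the electron input module, stood at 80.4 and 69.9 FPKM in shCtl against 42.2 and 34.6 in shWDR43. Its log2 fold change of -0.95 ± 0.15 (SE) was the lowest of the 7 (adjusted p = 0.00316). Ndufv1 (chromosome 19, 4007499 to 4012755), which binds NADH and the flavin, had the smallest fall of the 7, from 54.7 and 59.3 to 41.4 and 36.3 FPKM.

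Among the 29 accessory subunits of complex I, 21 were lower and 8 did not pass the test, and this group held the widest range of values of any complex. Ndufv3 (chromosome 17, 31657060 to 31668270), an accessory subunit of the NADH module, stood at 96.2 and 117.7 FPKM in shCtl against 40.8 and 47.3 in shWDR43. The fall of the mean was 2.43-fold, and limma gave -1.26 ± 0.15 (SE) on the log2 scale with an adjusted p of 0.00161. Ndufa7, the most abundant of the accessory subunits, stood at 238.7 and 248.4 against 160.8 and 145.1 FPKM. The 8 that did not pass were Ndufa1, Ndufa3, Ndufa11, Ndufa12, Ndufab1, Ndufb6, Ndufb9 and Ndufs5. Ndufab1, the mitochondrial acyl carrier protein, lay next to the threshold with an adjusted p of 0.0530, and Ndufb7, with 0.0492, passed it. Ndufb6 (chromosome 4, 40217696 to 40226401), a membrane arm subunit, stood at 123.5 and 155.7 FPKM in shCtl against 146.3 and 125.2 in shWDR43, so its groups overlapped. Its log2 fold change was -0.03, with a 95% interval from -0.40 to 0.33.

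Ndufs5 (chromosome 4, 123389953 to 123395429), an accessory subunit of the intermembrane side, was the gene of the group with the highest log2 fold change. It stood at 10.1 and 6.9 FPKM in shCtl against 18.2 and 10.3 in shWDR43. The lowest shWDR43 value was just above the highest shCtl value, and the log2 fold change of 0.65 ± 0.27 (SE) had an adjusted p of 0.0871. The adjusted p passed the threshold with centred libraries (0.0216, at 0.98 on the log2 scale). It also passed when only genes of at least 5 FPKM were tested (0.0110), and with a term for the replicate number (0.00739). Replicate numbers did not pair the samples. It did not pass with other pseudocounts, without the level filter or without the intensity trend. The authors' deposited table gives Ndufs5 a fold change of 1.67 with an unadjusted p of 0.15.

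Of 7 complex I assembly factors, which help build the enzyme and do not stay in it, 4 were lower. They were scarcer than the subunits, with mean levels from 2.85 to 25.3 FPKM. Ndufaf2, an assembly chaperone (chromosome 13, 108842783 to 108948819), was the most abundant and had the lowest log2 fold change, with 35.1 and 35.5 FPKM in shCtl against 15.1 and 15.5 in shWDR43 (-1.16 ± 0.12, SE, adjusted p = 0.00130). Ndufaf6, Ndufaf4 and Ndufaf7 were also lower, while Ndufaf1, Ndufaf3 and Ndufaf5 did not pass the test.

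**Figure D2:**
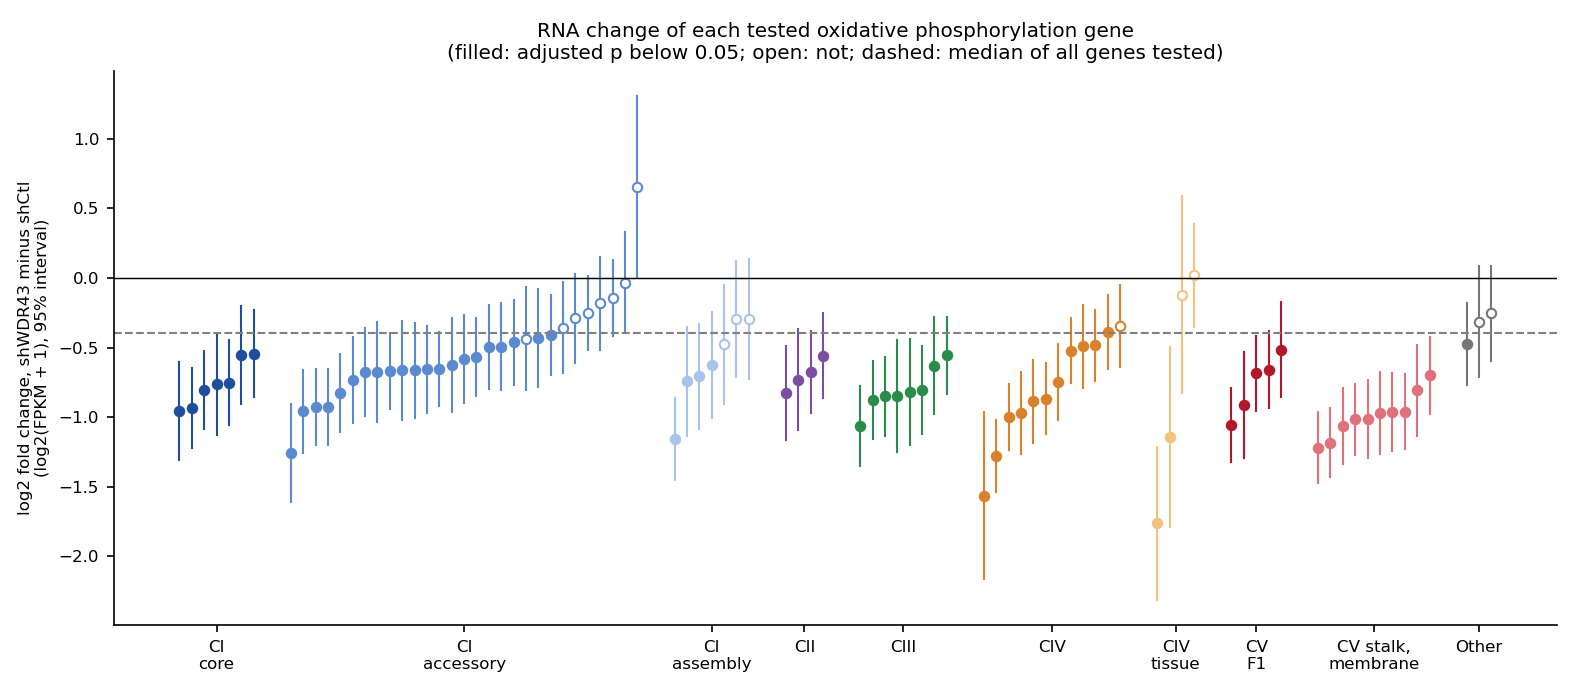
Each point is the log2 fold change (shWDR43 minus shCtl, y axis) of 1 of the 89 tested genes with its 95% interval from limma, ordered within its complex (C) on the x axis, filled where the adjusted p is under 0.05. Core complex I, complexes II and III and both parts of complex V are filled throughout, and the open points gather in the accessory subunits and assembly factors of complex I, the tissue isoforms and the other matches, with Cox8a the only open point among the 12 of complex IV.

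All 4 subunits of complex II, the enzyme shared with the citric acid cycle and the only respiratory complex wholly encoded in the nucleus, were lower. Sdhc, a membrane anchor (chromosome 1, 173059288 to 173080734), was the most abundant and fell most, from 91.5 and 92.6 FPKM to 57.3 and 46.2. The change was -0.83 ± 0.14 (SE) on the log2 scale, with an adjusted p of 0.00422. Sdhd, the other anchor (chromosome 9, 50404445 to 50411954), fell least, from 69.8 and 62.9 to 46.8 and 42.6 FPKM. The flavoprotein Sdha and the iron-sulfur subunit Sdhb lay between them at -0.73 and -0.67.

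All 8 nuclear subunits of complex III, which passes electrons from ubiquinol to cytochrome c, were lower, with a median log2 fold change of -0.83. Uqcrh, the hinge protein (chromosome 4, 115739570 to 115747675), stood at 322.2 and 340.5 FPKM in shCtl against 169.9 and 147.2 in shWDR43. This was a 2.09-fold fall of the mean, the largest fall of the complex (log2 fold change -1.06 ± 0.12, SE, adjusted p = 0.00147). Uqcrb, the most abundant, stood at 340.9 and 341.9 against 199.6 and 172.9 FPKM. Uqcrc1, a core protein, fell least, from 141.0 and 148.9 to 102.1 and 94.5 FPKM. The Rieske iron-sulfur protein Uqcrfs1 lay at -0.85.

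Of the 12 main subunits of complex IV, which hands electrons to oxygen, 11 were lower, and the group held the most abundant RNAs. Cox7c, a small membrane subunit (chromosome 13, 86184403 to 86186400), had the highest mean of all 92 genes and stood at 1005.3 and 1062.8 FPKM in shCtl against 534.6 and 500.2 in shWDR43. Cox6c (chromosome 15, 35861731 to 35868001) stood at 411.7 and 450.7 against 174.6 and 179.2 FPKM, a 2.44-fold fall of its mean (log2 fold change -1.28 ± 0.11, SE, adjusted p = 0.00102). The authors' deposited table gives Cox6c a fold change of -2.44. Cox5a fell by 0.97 and Cox5b by 0.48 on the log2 scale. Ndufa4, named for complex I but a subunit of complex IV, fell from 474.8 and 437.7 to 354.7 and 295.7 FPKM. Ndufa4l2, its paralog known from hypoxia, was near the level filter, at 2.4 and 2.6 FPKM in shCtl against 0.4 and 0.0 in shWDR43 (log2 fold change -1.56 on the log2(FPKM + 1) scale). Cox8a (chromosome 19, 7289648 to 7292106) was the only one of the 12 that did not pass, at 369.1 and 433.1 against 330.0 and 298.9 FPKM with an adjusted p of 0.0542.

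In each isoform pair of complex IV the general isoform stood far above the tissue form, and the share of the tissue form did not overlap between the groups for Cox6b2, Cox7b2 and Cox4i2. Cox4i1 stood at 868.1 and 909.9 FPKM in shCtl against 635.2 and 601.9 in shWDR43, while Cox4i2, known from lung, was listed at 0.0 in shCtl and reached 0.3 and 0.7 in shWDR43, a share of at most 0.116% of the pair. Cox6a1 fell from 393.5 and 442.0 to 326.8 and 309.2 FPKM, and its heart and muscle form Cox6a2 did not exceed 0.4. Cox6b1 fell from 412.7 and 429.1 to 239.0 and 221.3 FPKM. Its testis form Cox6b2 (chromosome 7, 4703396 to 4704696) stood at 28.8 and 37.3 in shCtl against 34.1 and 32.4 in shWDR43, and did not pass the test (adjusted p = 0.928). The share of Cox6b2 in the summed FPKM of the pair was 6.52% and 8.00% in shCtl and 12.5% and 12.8% in shWDR43, without overlap. With 2 libraries against 2, an exact permutation test of such a share cannot give a two-sided p below 0.333.

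Cox7a2, the general form of its pair, fell from 120.6 and 115.3 to 70.6 and 68.8 FPKM, and the heart and muscle form Cox7a1 from 18.9 and 23.8 to 12.5 and 6.5 FPKM. The share of Cox7a1 in that pair was 13.6% and 17.1% in shCtl and 15.0% and 8.63% in shWDR43, which overlapped. Cox7b fell from 174.4 and 162.5 to 96.9 and 84.8 FPKM. Cox7b2, known from testis, was listed at 2.2 and 2.6 FPKM in shCtl, 1.25% and 1.57% of the pair, against 0.0 in both shWDR43 libraries, and its fall of 1.76 on the log2(FPKM + 1) scale was the largest of the group. Cox8b was at 0.0 in all 4 libraries, and Cox8c stood at 1.9 and 0.7 against 1.2 and 0.9 FPKM.

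**Figure D3:**
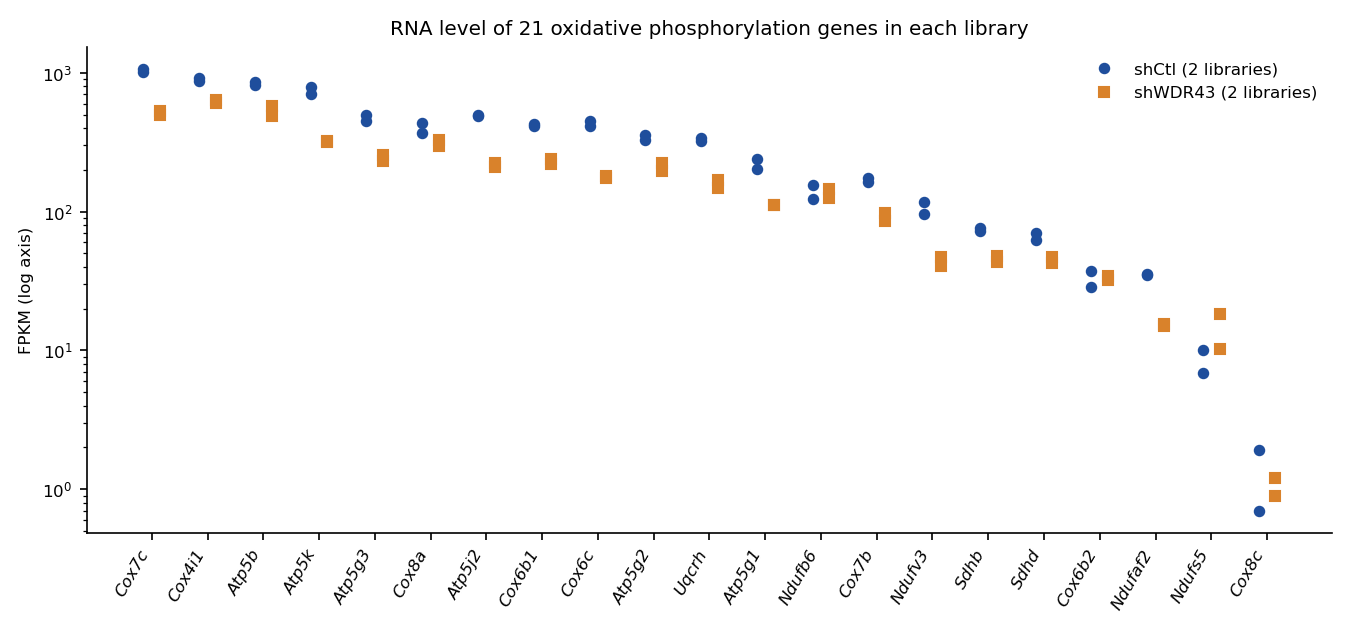
FPKM (y axis, log scale) of 21 oxidative phosphorylation genes, ordered by mean level, with 1 blue circle for each shCtl library and 1 orange square for each shWDR43 library. The squares lie below the circles for every gene except Ndufb6, Cox6b2 and Cox8c, where the groups overlap, and Ndufs5, where they lie above.

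All 15 subunits of complex V were lower, and the stalk and membrane part had the lowest median of the groups formed by role, at -0.99 over 10 genes against -0.68 over the 5 genes of the F1 head. Atp5b, the catalytic beta subunit (chromosome 10, 127520363 to 127527444), was the most abundant and stood at 863.9 and 815.9 FPKM in shCtl against 579.0 and 488.2 in shWDR43. Of the F1 head, Atp5c1, the gamma subunit that turns inside it, fell most, from 197.3 and 199.5 to 96.7 and 93.1 FPKM. Atp5d, the delta subunit, fell least of the complex, from 99.4 and 116.9 to 81.6 and 69.2 FPKM. In the membrane part Atp5k, the e subunit at the contact between synthase dimers (chromosome 5, 108862272 to 108863397), stood at 705.1 and 784.9 FPKM in shCtl against 322.9 and 315.5 in shWDR43. The mean fell 2.33-fold (log2 fold change -1.22 ± 0.11, SE, adjusted p = 0.00107). Atp5j2, the f subunit, stood at 484.4 and 498.1 against 223.1 and 208.9 FPKM. With centred libraries all 10 stalk and membrane genes were still lower, with a median of -0.66, as were 4 of the 5 of the F1 head.

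Atp5g1, Atp5g2 and Atp5g3 encode the same mature subunit c, the ring that turns as protons pass, and all 3 were lower. Atp5g3 (chromosome 2, 73746507 to 73749351) stood at 448.8 and 498.4 FPKM in shCtl against 255.7 and 229.5 in shWDR43. Atp5g1 (chromosome 11, 95934107 to 95936945) stood at 204.0 and 238.5 against 112.3 and 111.5 FPKM. Atp5g2 (chromosome 15, 102493299 to 102501478) stood at 329.2 and 353.2 against 222.6 and 197.3 FPKM, the smallest fall of the 3 and of the stalk and membrane genes, at 0.70 on the log2 scale. Its share of the summed FPKM of the 3 genes was 33.5% and 32.4% in shCtl and 37.7% and 36.7% in shWDR43, without overlap.

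Between complexes, the balance of RNA differed in the same sense in both libraries of each group. Complex V made up 33.5% and 33.1% of the summed FPKM of the 92 genes in shCtl and 29.8% and 29.5% in shWDR43. The core and accessory subunits of complex I, without its assembly factors, made up 22.0% and 21.9% in shCtl and 24.5% and 24.9% in shWDR43. Complex IV with its isoforms differed less, at 31.4% and 31.2% against 32.4% and 32.7%. Complex II stood at 1.97% and 1.76% against 1.94% and 1.90%, and complex III at 10.1% and 10.8% against 10.1% and 9.81%, and both overlapped. These shares do not depend on the spike-in scale.

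Genes of the pathway outside the symbol rule were also mostly lower, apart from the assembly factors. These lists were not split by level. Of all genes tested 42.7% were lower and 6.1% higher. Of those with a mean from 11.6 FPKM to below the abundant level 56.0% were lower, and of abundant ones 78.4%. Of 7 carriers and further subunits 6 were lower, from cytochrome c (Cycs, log2 fold change -0.95) to the electron transfer flavoprotein Etfa (-0.53), and Etfdh at 0.31 did not pass the test. All 16 citric acid cycle and pyruvate dehydrogenase genes were lower, from Suclg2 (-1.10) to Dlst (-0.38). Of 34 further assembly factors tested 16 were lower and none higher by limma, with a median of -0.44 that lay near the -0.39 of all genes. Foxred1, a complex I assembly factor, had the lowest value (-1.10), and Pet117 the highest (1.68), from 1 library alone, at 0.0 in 3 libraries and 9.3 FPKM in the other. Among the regulators of the pathway 12 of 14 tested were lower and 1 was higher. Nrf1 stood at 20.3 and 19.3 FPKM in shCtl against 11.3 and 11.1 in shWDR43, and Gabpa at 38.4 and 28.9 against 18.1 and 15.6. Tfb1m, a factor of mitochondrial ribosome assembly, had the lowest value (-0.98). Esrra, an orphan nuclear receptor that activates the pathway, was the gene that was higher, at 2.1 and 2.8 FPKM against 4.3 and 3.7 (log2 fold change 0.54 ± 0.18, SE, adjusted p = 0.0428). The coactivator Ppargc1a was at 0.0 throughout.

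WDR43 peaks were found at most of the loci, at about the share of other abundant genes. A locus was counted when a peak lay within 1 kb of either end. In DMSO 69 of 92 loci had such a peak, against 46.4% of all coding loci, and their share of 75% stood beside 79.2% of abundant coding loci. In the FB line there were 82 loci, against 59.1% of all coding loci, and in the cFB-KI line 79, against 59.5%. The corresponding shares of abundant coding loci were 92.7% and 89.4%. The strand was known for 76 loci. Of these, 59 had a DMSO peak at the annotated start, against 44.4% of coding loci with a strand, and 4 had a peak at the other end. At the start there were also 69 in the FB line (56.7% of coding loci) and 67 in the cFB-KI line (57.6%). A peak in all 3 lists was found at 66 of 92 loci (71.7%), against 41.0% of all coding loci and 74.1% of abundant ones. Among them were all 7 core subunits of complex I and all 7 assembly factors. The 7 loci with none in these 3 lists were Cox6a2, Cox6b1, Cox7a1, Cox7b, Cox7b2, Cox8b and Ndufb11. Of these Cox6b1, Cox7b and Ndufb11 had mean levels of 325.5, 129.65 and 60.5 FPKM.

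After DRB 13 of 92 loci had a WDR43 peak at an end, 14.1%, against 6.8% of all coding loci and 14.4% of abundant ones. All 13 lay at the start (6.4% of coding loci with a strand). They were Atp5g2, Atp5g3, Atp5j, Atp5l, Cox7a2l, Ndufa10, Ndufa13, Ndufaf7, Ndufb5, Ndufb7, Ndufc2, Sdha and Uqcrh, and 12 of them also had a DMSO peak. At Uqcrh the DMSO peak had a deposited score of 136.59 and the DRB peak one of 91.06, at chr4:115747966-115748450 and chr4:115747956-115748196 (mm9), before the annotated start. Both peaks also overlap the locus of Lrrc41, which lies 394 bp from Uqcrh on the other strand. They cannot be assigned to either gene alone. At Atp5g2 the DMSO and DRB peaks scored 211.79 and 63.75. Scores are the authors' own and are not comparable between lists. After ActD no locus had a peak, against 0.258% of all coding loci, and a count of 0 of 92 allows a share of up to 3.26%. The lists held 31189 peaks in DMSO, 4426 in DRB and 407 in ActD, with 1 library each, so no test was possible. With peaks of a score of at least 100 only, 44 loci had a DMSO peak (25.65% of all coding loci) and none a DRB peak (0.896%).

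The RNA changes were also read by whether the locus had a WDR43 peak. The 69 tested genes with a DMSO peak at an end had a median log2 fold change of -0.67, and the 20 without of -0.77, where all tested coding genes had -0.41 with and -0.33 without. Their medians of mean level were 86.7 and 130.0 FPKM. In the FB list the medians were -0.67 over 81 genes with a peak and -0.88 over 8 without, against -0.40 and -0.29 over all tested coding genes. The difference between these medians was not tested.

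**Figure D4:**
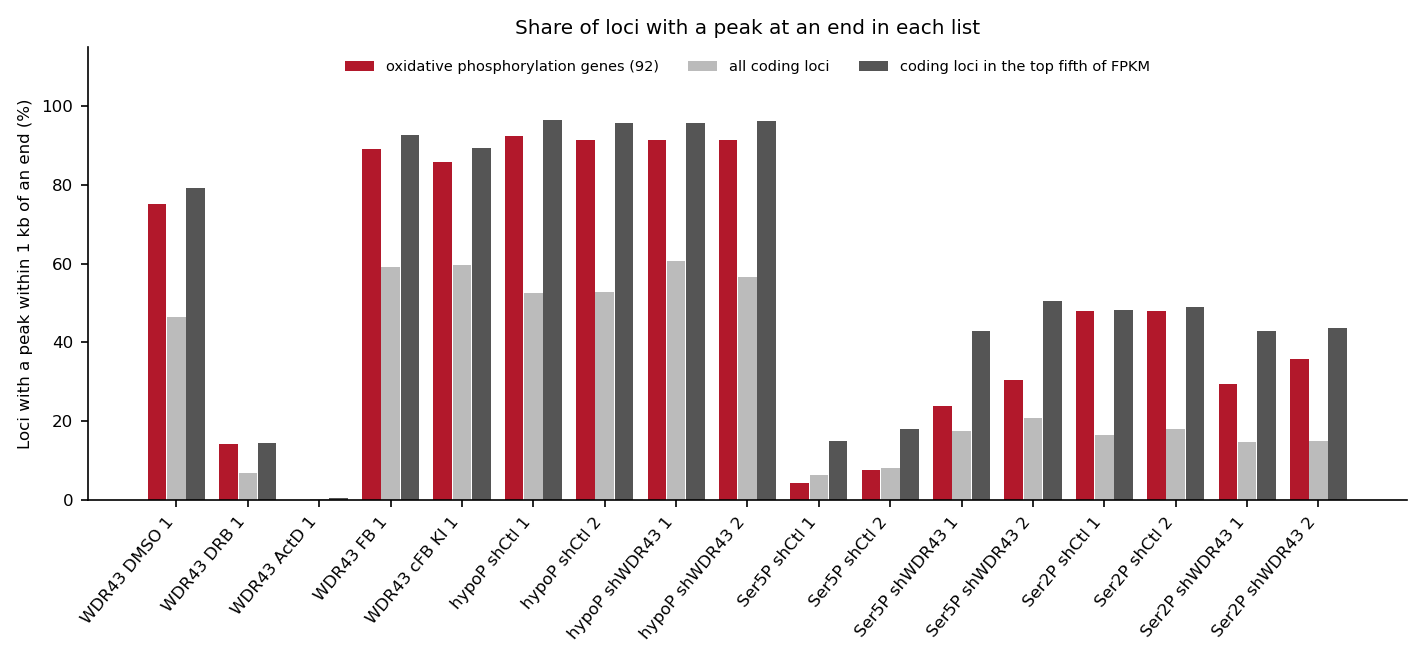
Bars give the percent of loci with a peak within 1 kb of an end in each of the 17 lists (y axis from 0), for the 92 oxidative phosphorylation loci, all coding loci and the abundant coding loci, with a mean of at least 27.2 FPKM. The red bars follow the dark bars closely in the WDR43 and hypoP lists and fall below them in all 4 Ser5P lists and in the shWDR43 lists of Ser2P.

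Hypophosphorylated Pol II was found at nearly every locus, with and without the WDR43 hairpin. In shCtl 85 and 84 of 92 loci had a hypoP peak at an end, 92.4% and 91.3%. The shares were 52.6% and 52.7% of all coding loci and 96.5% and 95.8% of abundant ones. In shWDR43 there were 84 and 84, 91.3% in each, against 60.6% and 56.5% of all coding loci and 95.7% and 96.1% of abundant ones. The same 84 loci had a peak in all 4 lists, against 50.3% of all coding loci and 93.8% of abundant ones. The 7 loci with none in any list were Cox4i2, Cox6a2, Cox7b2, Cox8b, Cox8c, Ndufa4l2 and Ndufa7. The first 6 of these are scarce RNAs, and Ndufa7 had a mean of 198.2 FPKM and lies 73 bp from the ribosomal protein gene Rps28. At the start there were 73 and 72 of the 76 oriented loci in shCtl, where both lists held 51.9% of coding loci with a strand. Peaks inside the locus, more than 1 kb from both ends, were found at 21 and 20 loci in shCtl (23.4% and 25.5% of coding loci) and at 29 and 14 in shWDR43 (39.7% and 29.3%). These counts overlapped between the groups, and the loci of the group were short, with a median length of 7078 bp. With 2 kb in place of 1 kb, inside peaks remained at 2 and 3 loci in shCtl and 9 and 3 in shWDR43.

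Ser5P peaks were few at these loci in shCtl and more frequent in shWDR43, below the share of other abundant genes in both. In shCtl 4 and 7 loci had a peak at an end, 4.35% and 7.61%, against 6.18% and 8.14% of all coding loci and 14.9% and 18.1% of abundant ones. In shWDR43 there were 22 and 28, 23.9% and 30.4%, against 17.6% and 20.7% of all coding loci and 42.8% and 50.5% of abundant ones. The groups did not overlap, and 2 lists against 2 allow no p below 0.333. Atp5a1 was the only locus in both shCtl lists. In both shWDR43 lists and neither shCtl list were 9 loci, Atp5j, Cox4i1, Cox6b2, Cox7c, Ndufb9, Ndufs1, Ndufs7, Sdhb and Uqcrc1 (9.78% of the 92, against 6.36% of all coding loci and 17.7% of abundant ones). The lists held 1879 and 2520 peaks in shCtl and 6535 and 7589 in shWDR43. The part of list length in these counts was not tested, and with a score of at least 100 there were 0 and 0 loci in shCtl and 2 and 5 in shWDR43, with 0.416%, 0.649%, 3.26% and 4.185% of all coding loci in these 4 lists.

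Ser2P peaks lay mostly at the end opposite the start and were at fewer of these loci in shWDR43. In shCtl 44 and 44 of 92 loci had a peak at an end, 47.8% in each, against 16.5% and 17.9% of all coding loci and 48.1% and 49.0% of abundant ones. In shWDR43 there were 27 and 33, 29.3% and 35.9%, against 14.7% and 14.9% of all coding loci and 42.8% and 43.6% of abundant ones. The groups did not overlap. By strand, peaks at the end opposite the start were found at 34 and 33 of 76 loci in shCtl (13.3% and 14.7% of coding loci with a strand) and at 20 and 22 in shWDR43 (10.9% and 11.2%). Peaks at the start stood at 7 and 11 loci (5.72% and 6.26% of coding loci with a strand) against 7 and 8 (5.91% and 5.94%). The list lengths differed less than for Ser5P, with 3878 and 4319 peaks in shCtl and 3501 and 3504 in shWDR43. With a score of at least 100 the counts were 21 and 18 (6.91% and 7.96% of all coding loci) against 15 and 14 (6.56% and 6.72%). With a window of 250 bp the first shCtl list held 27 (13.5%) in place of 44. The other Ser2P lists stayed within 1.5 times their counts at 1 kb, and the groups are not compared here at 250 bp.

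Of the 38 loci with a Ser2P peak at an end in both shCtl lists, 22 kept one in both shWDR43 lists and 10 had none in either. These 10 were Cox7a2, Cox8a, Ndufa3, Ndufa10, Ndufa12, Ndufs8, Sdhb, Uqcrfs1, Uqcrh and Uqcrq. They make up 26.3% of the 38, where the same share was 14.3% over all coding loci and 11.5% over abundant ones. No locus had a peak in both shWDR43 lists and in neither shCtl list. The 10 genes had a median log2 fold change of -0.71, and the 22 that kept a peak, 21 of them tested, one of -0.87. At Uqcrh the shCtl peaks, downstream of the gene at chr4:115736682-115738949 and chr4:115736882-115738768 (mm9), had scores of 56.46 and 57.53, low in their lists, and at Cox7c, where peaks stayed, they had 141.5 and 172.12.

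**Figure D5:**
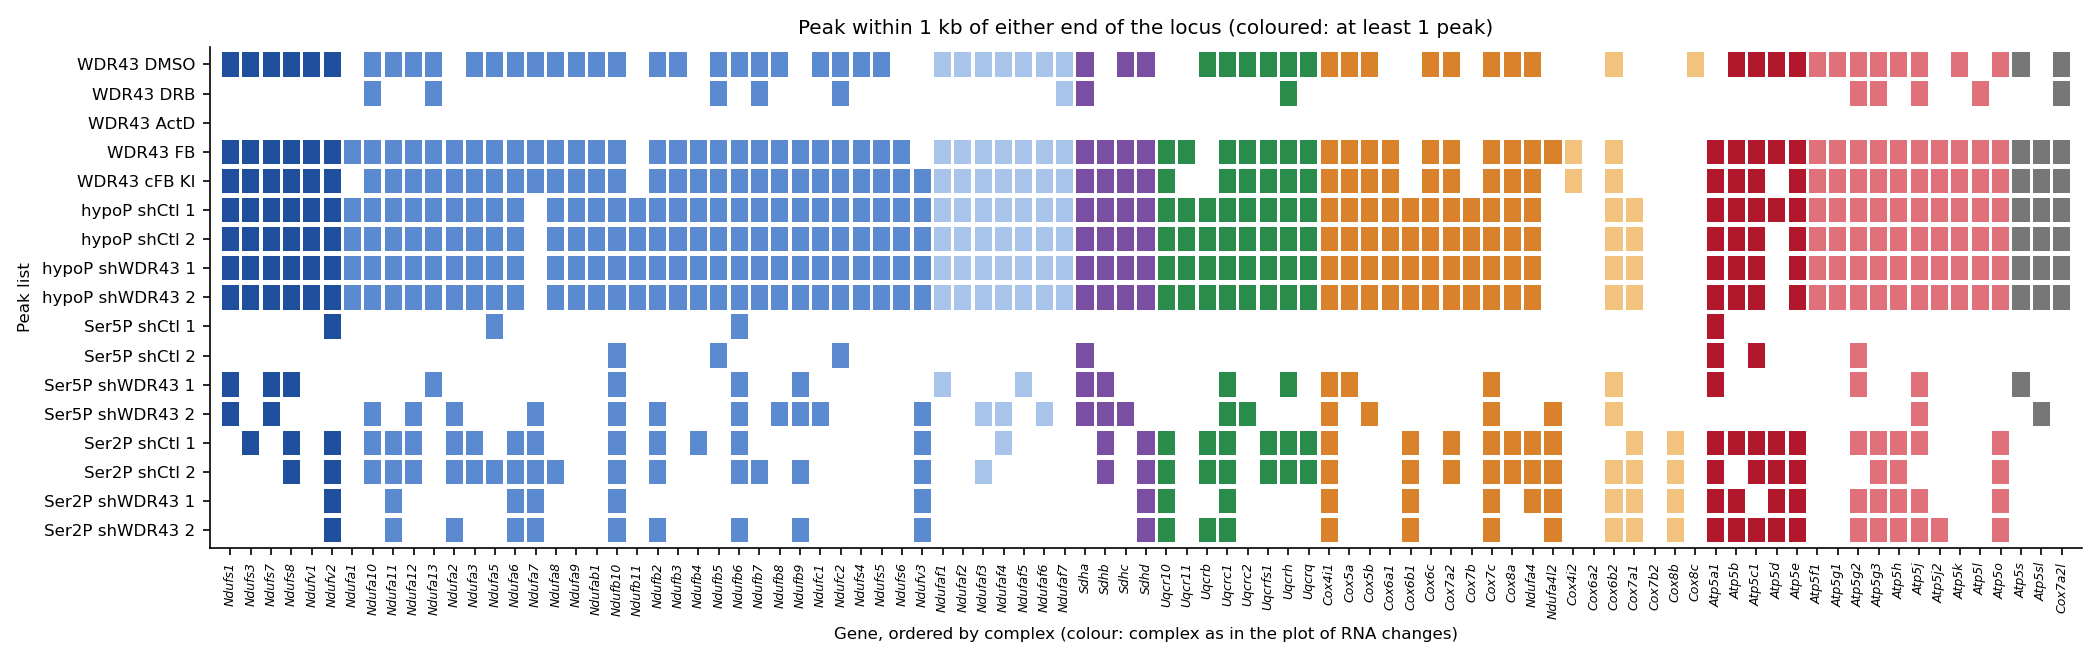
A coloured square marks a gene (x axis, ordered by complex) with at least 1 peak within 1 kb of an end of its locus in a list (y axis). The 4 hypoP rows are filled for nearly all genes, the ActD row is empty, and the Ser2P rows hold fewer squares in shWDR43 than in shCtl (1 gene of the 92 is not drawn).

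Across the 17 lists, Ndufb10 (chromosome 17, 24859012 to 24861333) had a peak at an end in 14, the most of the group, and Cox6a2 and Cox7b2 had none. Of the 92 genes, 80 had a peak in at least 7 lists. Many of these genes share their ends with another gene: 44 of 92 had another coding locus within 1 kb, so that peaks there cannot be assigned to either gene alone. Ndufb10 lies 139 bp from Rps2, Cox4i1 177 bp from Emc8, and Atp5j overlaps Gabpa on the opposite strand. RNA reads where loci overlap cannot be told apart either, since counting is not stated to use strand. Of the 45 neighbours 35 were tested, and 28 of them were lower and none higher by limma at the adjusted threshold, with a median log2 fold change of -0.72. Of all genes tested 42.7% were lower, with a median of -0.39, and of abundant ones 78.4%, with a median of -0.71. The difference of the neighbours from the group was not tested.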

How the data were processed

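The authors deposited a table of FPKM values for 38582 genes in 4 RNA libraries. Per the submitters' processing notes TopHat and Cufflinks were used, from which the unit was inferred. Values carry 1 decimal on a scale titled spike-in, with the scaling steps not given in the sources used here, so depth is unknown for all libraries. Per the file headers the 2 RNA libraries of a group are biological replicates. The authors also deposited a fold change (a signed ratio) score and an unadjusted p-value per gene. For ChIP, the authors deposited 1 list per library of peaks with a score of at least 50, with reads aligned by Bowtie2 to mm9 per the submitters' processing notes. Peak caller, settings and control: not given in the sources used here. Of 27 samples, 6 are not analysed here.

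RNA was tested with limma 3.58.1 (R 4.3.3) on log2(FPKM + 1), with an intensity trend, over the 12452 genes with a mean of at least 1, and p-values were adjusted over all of them (Benjamini-Hochberg, threshold 0.05). This scale understates changes of low genes. The fit was tested on simulated data. Peaks were set on mm9 loci (deposited starts read as 0-based, printed 1-based) with at least 1 bp within 1 kb of an end, and strand came from RefSeq, GRCm38.p6, by symbol or accession, a step added after the data were seen. Genes were named by a fixed rule: per complex the most abundant and the lowest and highest log2 fold change, the isoform pairs, and the loci with most and fewest peaks. The values of 1 gene that this rule names are not reported here. Members and lists were chosen with earlier results of these data known. Alternatives were other pseudocounts, filters, scalings and fits, libraries left out, and other peak windows, overlaps and scores.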

Additional observations from a re-analysis of the deposited data

How the results depend on the processing

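The median log2 fold change of the group stayed below 0 in every fit, and the count of lower genes (73) stayed between 70 and 76 with pseudocounts of 0.1 and 0.5, a filter at 5 FPKM, the replicate block and no intensity trend. With no filter on low values (92 genes tested among 38582) 15 were lower. With centred libraries 46 were lower with a median of -0.35. Ndufs5 was the 1 gene called higher at a filter of 5 FPKM, with centred libraries and with the replicate block. Without 1 library there were 0 calls in each of the 4 fits, and medians ran from -0.77 to -0.63.
The RNA replicate numbers did not pair the samples (r = 0.05 between the deviations of equal numbers across 12452 genes), and the fit with the replicate block called 76 genes lower and 1 higher. ChIP counts come from no test, so no paired fit applies to them.
With centred libraries these log2 fold changes were above 0: Atp5s 0.017, Atp5sl 0.075, Cox8c 0.21, Ndufa1 0.15, Ndufa3 0.19, Ndufa11 0.040, Ndufaf3 0.035, Ndufaf5 0.036, Ndufb6 0.30 and Ndufb9 0.081. None of the 10 had passed the test. Without 1 library the value of Cox6b2 ran from -0.16 (-0.02 without the first of shWDR43) to 0.20, that of Cox8c from -0.50 to 0.27, and that of Ndufb6 from -0.20 to 0.13 (0.08 without the second of shWDR43).
With a score of at least 100, loci with a peak at an end numbered 44 in DMSO, 0 in DRB, 0 and 0 in Ser5P shCtl, 2 and 5 in Ser5P shWDR43, 21 and 18 in Ser2P shCtl and 15 and 14 in Ser2P shWDR43. With a window of 250 bp the first Ser2P shCtl list held 27. Loci with a peak inside numbered, with a score of at least 100, 1 in DMSO, 5 in FB, 2 and 1 in Ser5P shWDR43, 3 and 3 in Ser2P shCtl and 2 in the first Ser2P shWDR43 list. With a 2 kb window they numbered 9 in FB, 2 in cFB-KI, 2 and 3 in hypoP shCtl, 9 and 3 in hypoP shWDR43, 1 and 2 in Ser5P shWDR43, 3 and 3 in Ser2P shCtl and 1 and 1 in Ser2P shWDR43. Other counts stayed within 1.5 times. Where a value moved, the cause was not tested.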
